A study of Mus musculus with 26 samples.

Results

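The 6 libraries described here were mouse mammary tumors, 3 from mice given the Malat1 antisense oligonucleotide ASO1 and 3 from mice given the control oligonucleotide scASO, chosen by their sample titles from 26 libraries in all. Every tumor came from a C57BL/6 mouse carrying MMTV-PyMT, in which a mouse mammary tumor virus promoter drives the polyoma middle T oncoprotein in mammary epithelium, so the control tumors carry the same transgene and are themselves oncogene-driven. Both oligonucleotides were injected under the skin at 125 mg/kg per week for several weeks, and whole tumor tissue was homogenized for polyadenylated RNA. The labels give no age or sex, no sequence of either oligonucleotide, and no statement that each tumor came from a separate mouse, and the p-values then reflect spread among these tumors alone, which may be technical. The other tumors of the series, 4 given a second Malat1 oligonucleotide (ASO2), served here to estimate the spread and to ask whether a difference was shared. Values of 8 organoid cultures (4 with ASO1, 4 with scASO, 500 nM for 6 days, renewed after 3 days) were set beside the tumors, without a test.

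Malat1 is an abundant long noncoding RNA of the nucleus, found in speckles, the compartments that hold pre-mRNA splicing factors. An antisense oligonucleotide of this kind pairs with its target RNA and directs RNase H1 to cut it, which works inside the nucleus. Untreated MMTV-PyMT tumors begin as luminal-like growths that still make some milk proteins and lose secretory differentiation as they progress. The title of the series speaks of differentiation of tumors and of metastasis, and the comparison asks which genes differ in a tumor after ASO1.

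The ASO1 tumors held 22604424, 51363552 and 29487340 reads assigned to genes (tumors 1, 2 and 3) and the scASO tumors 35839773, 33773193 and 22430099, so that ASO1 tumor 2 was the most deeply sequenced of them. Luminal epithelial markers were abundant in all 6, with keratin Krt8 at 662 to 1088 CPM (a gene's reads relative to the library's total of assigned reads, after TMM scaling). Reads with several alignments, which were not counted for any gene, equalled 25.6 to 29.5% of assigned reads in ASO1 tumors and 24.1 to 25.1% in scASO tumors, and their part in the results was not tested. Of the ASO2 tumors, which entered the estimate of the spread, tumor 4 held only 9939520 assigned reads. In ASO2 tumor 1, reads with several alignments equalled 44.0% of assigned reads. Mitochondrially encoded genes summed to 76859 CPM in that tumor, against 15891 to 25237 CPM in the other tumors. The ASO1 tumors differed more among themselves than the controls did. The median over genes of the SD of log2 CPM was 0.36 among ASO1 tumors and 0.21 among scASO tumors, and pairs of tumors correlated across genes at 0.926 to 0.950 in the ASO1 group and at 0.972 to 0.977 in the scASO group. Among the 4 ASO2 tumors that median was 0.40 and pairs correlated at 0.93 to 0.97. A spread wider than that of the controls was therefore not particular to the ASO1 group. Of 17354 genes, 73.2% had the larger SD in the ASO1 group. The first principal component of the 6 tumors, which held 38.1% of their variance over the most variable genes, set ASO1 tumor 3 (score 44.2) against ASO1 tumor 2 (score -34.5). The third, with 19.8%, set the ASO1 tumors (-18.8, -20.0 and -9.8) apart from the scASO tumors (24.0, 6.9 and 17.7).

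Malat1 (ENSMUSG00000092341; GRCm38 chromosome 19, 5795690 to 5802672, minus strand), annotated as a long intergenic noncoding RNA, was measured at 945, 885 and 466 CPM in the ASO1 tumors and at 1799, 2176 and 945 CPM in the scASO tumors. The highest ASO1 tumor and the lowest scASO tumor were at the same level, so that the groups only just failed to overlap. The geometric mean with ASO1 was 47.2% of that with scASO, and the exact two-sided permutation p was 0.1, the smallest that 3 against 3 tumors allow. In the edgeR fit over all genes the log2 fold change was -1.10 ± 0.40 (SE), with an adjusted p of 0.535 by its quasi-likelihood test. In the ASO2 tumors Malat1 was at 694, 1035, 730 and 428 CPM, and the ASO1 and ASO2 groups overlapped (log2 difference 0.09, exact permutation p = 0.857). Neat1, the long noncoding RNA encoded next to Malat1 that builds paraspeckles, was at 748, 1174 and 1471 CPM with ASO1 and at 2428, 951 and 1626 CPM with scASO, with overlapping groups.

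Of 17354 genes tested, 1 passed edgeR's quasi-likelihood test at an adjusted p under 0.05 (0.00576%), and it was higher with ASO1. It was Slc47a1 (ENSMUSG00000010122; GRCm38 chromosome 11, 61343401 to 61378345, minus strand), which encodes MATE1, a membrane transporter that exports organic cations in exchange for protons and is best known from kidney and liver. It stood at 18.7, 20.6 and 50.3 CPM in the ASO1 tumors and at 1.33, 2.43 and 1.55 CPM in the scASO tumors, so that the lowest ASO1 tumor held several times the level of the highest control. The log2 fold change was 4.07 ± 0.45 (SE, n = 3 tumors per group), or 16.8-fold, with an adjusted p of 0.0442 by edgeR. In the ASO2 tumors it was at 4.16, 5.52, 4.60 and 5.37 CPM, above every scASO tumor and below every ASO1 tumor. The call was kept without ASO1 tumor 1, ASO1 tumor 3 or ASO2 tumor 4 but depended on the other tumors: 0 genes were called when ASO1 tumor 2, any single scASO tumor or any of ASO2 tumors 1 to 3 was left out, or with the spread estimated from the 6 tumors alone, while the fold change of Slc47a1 stayed between 3.45 and 4.37 on the log2 scale when each tumor was left out.

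At an unadjusted p under 0.05 there were 1466 genes (8.45% of those tested), 862 higher (4.97%) and 604 lower (3.48%). The groups did not overlap for 2854 genes (16.4%), 1383 higher with ASO1 (7.97%) and 1471 lower (8.48%). DESeq2, fitted to the same counts, called 130 of 16454 genes (0.790%), 60 higher (0.365%) and 70 lower (0.425%), and that count was 33 without scASO tumor 1 and 277 without ASO1 tumor 1, the extremes over the 6 tumors left out in turn. Few single genes therefore stood above the spread between tumors by edgeR, and the values below of genes other than Slc47a1 describe these 6 tumors.

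**Figure D1:**
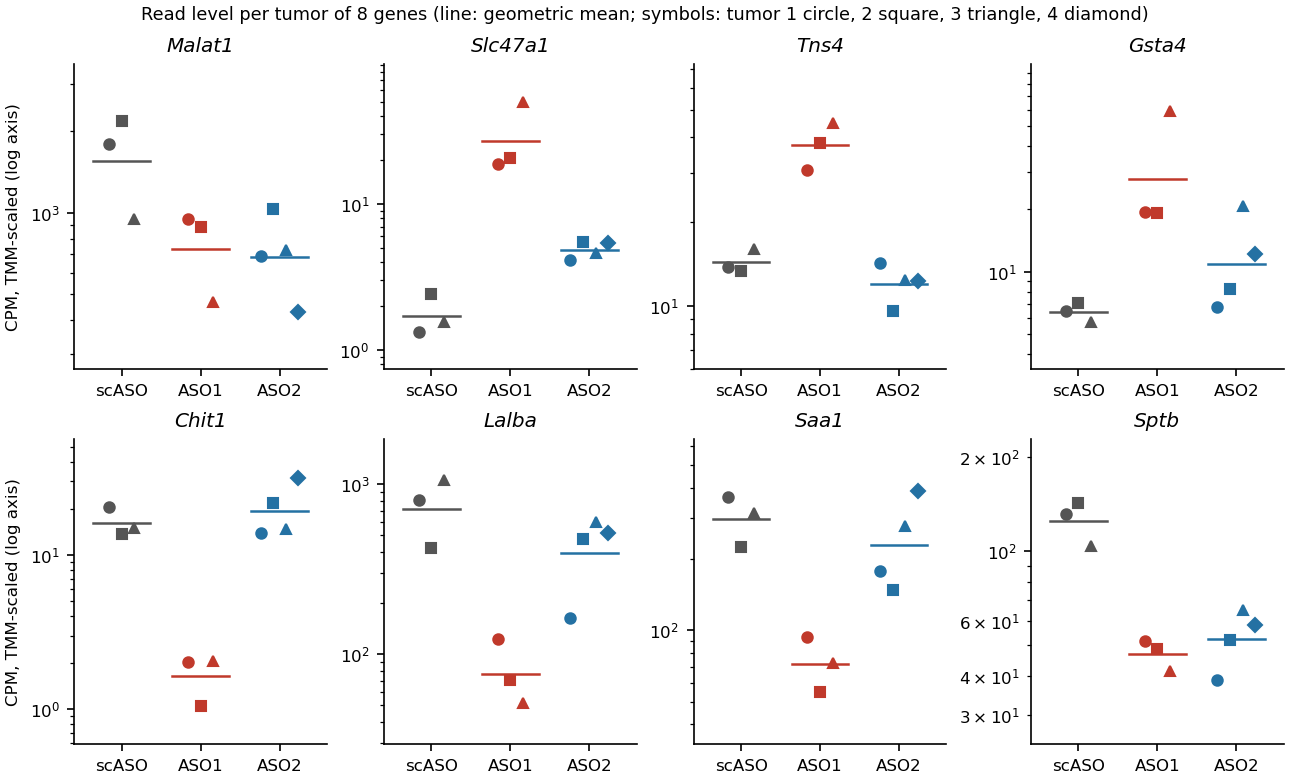
CPM of 8 genes on a log axis in the scASO, ASO1 and ASO2 tumors, with 1 symbol per tumor and a line at the geometric mean of each group. Slc47a1 lies at 18.7 to 50.3 CPM in ASO1 tumors, 4.16 to 5.52 in ASO2 tumors and 1.33 to 2.43 in scASO tumors, while Chit1 lies at 1.05 to 2.06 CPM in ASO1 tumors and at 13.7 or above in every other tumor.

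Among genes with higher estimates, the 15 with the smallest p ran from a log2 fold change of 0.85 to 4.07, and for all 15 the 3 ASO1 tumors lay above the 3 scASO tumors, a separation that choosing by p favours. Of these, Tns4, a tensin of focal adhesions, was at 30.6, 38.2 and 45.03 CPM with ASO1 and at 13.8, 13.4 and 16 CPM with scASO (log2 fold change 1.4 ± 0.22, adjusted p = 0.202 by edgeR). It was even across the ASO1 tumors, and the ASO2 tumors, at 9.66 to 14.3 CPM, lay with the controls. Gsta4, a glutathione transferase for products of lipid peroxidation, was at 19.3, 19.2 and 59.0 CPM against 6.44, 7.04 and 5.69 CPM. Gstt1, another glutathione transferase, was at 52.6, 123 and 46.1 CPM against 17.9, 28.0 and 22.7 CPM. The tumor with the highest value was not the same for the 2 enzymes: ASO1 tumor 3 for Gsta4 and ASO1 tumor 2 for Gstt1. Rasa3, which switches off Ras and Rap proteins, was at 45.8, 67.4 and 88.5 CPM against 20.9, 27.3 and 18.6 CPM. Ripor2, an inhibitor of RhoA, was at 21.1, 13.7 and 24.4 CPM against 4.18, 9.86 and 4.92 CPM. Stard13, a GTPase-activating protein, was at 14.98, 35.6 and 19.8 CPM against 9.43, 9.47 and 10.1 CPM. The ephrin-B receptor kinase Ephb2 was at 5.04, 9.19 and 11.5 CPM against 2.37, 3.24 and 1.81 CPM. The remainder were Eogt, which adds N-acetylglucosamine to EGF-like domains in the endoplasmic reticulum, Rbbp8, which acts in resection of broken DNA ends, Zfp275, Fam92a, Tpgs2, Plekho2 and Enc1, with log2 fold changes from 0.85 (Rbbp8) to 2.37 (Zfp275).

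Among genes with lower estimates, the 15 with the smallest p ran from -3.26 to -0.73, again with all 3 ASO1 tumors below all 3 scASO tumors. Chit1 (ENSMUSG00000026450; GRCm38 chromosome 1, 134111242 to 134151540, plus strand), the secreted chitin-degrading enzyme chitotriosidase, came nearest to the threshold. It was at 2.02, 1.05 and 2.06 CPM with ASO1 and at 20.4, 13.7 and 15 CPM with scASO (log2 fold change -3.26 ± 0.41, adjusted p = 0.0714 by edgeR, 10.4% of the control level). The ASO2 tumors held 13.8, 21.8, 14.8 and 31.8 CPM, so that low Chit1 was seen in the ASO1 group and not in the ASO2 group. Sptb, the beta chain of spectrin in the membrane skeleton, had the opposite relation to ASO2. It was at 51.5, 48.6 and 41.5 CPM with ASO1 and at 131, 143 and 104 CPM with scASO (-1.42 ± 0.21, adjusted p = 0.161), and the ASO2 tumors, at 38.7, 52.0, 64.6 and 58.1 CPM, also lay below every scASO tumor. Sptb is 1 of 7 genes among these 30 whose exons overlap those of a gene on the other strand. The exons of 2 others, Stard13 and L1cam, overlap a gene on the same strand. Ambiguous reads, equal to 3.9 to 4.4% of assigned reads with ASO1 and 4.0 to 4.5% with scASO, were counted for no gene. Without the strand setting and annotation of the counting, it is not known how reads of the shared stretches were counted.

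Of the other lower genes, Lalba, the alpha-lactalbumin subunit of lactose synthase made by secretory mammary cells, was at 123, 70.5 and 51.6 CPM with ASO1 and at 811, 419 and 1060 CPM with scASO (-3.22 ± 0.53, adjusted p = 0.235). Every ASO1 tumor lay several times below the lowest control, and the ASO2 tumors spanned 164 to 598 CPM. Saa1 and Saa2 encode serum amyloid A, an acute-phase apolipoprotein that mammary epithelium also secretes. Saa1 was at 94.0, 54.7 and 72.6 CPM with ASO1 and at 367, 226 and 315 CPM with scASO (-2.04 ± 0.37, adjusted p = 0.407). Saa2 was at 55.5, 26.3 and 31.5 CPM with ASO1 and at 203, 139 and 169 CPM with scASO (-2.18 ± 0.40, adjusted p = 0.407). The values of the pair cannot be taken as independent, because they are near-identical copies on chromosome 7 and reads that match both were not counted for either. Their likeness extends upstream of the genes: over bases 150 to 46 before the RefSeq start (GRCm38.p6; Saa1 on the minus strand at chr7:46743026-46743130, Saa2 on the plus strand at chr7:46751683-46751787), 96.2% of 106 aligned positions were identical. They are shown 5′ to 3′, with capitals for bases that differ in the alignment:
Saa1: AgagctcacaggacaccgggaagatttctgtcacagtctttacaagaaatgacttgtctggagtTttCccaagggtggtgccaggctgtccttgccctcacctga
Saa2: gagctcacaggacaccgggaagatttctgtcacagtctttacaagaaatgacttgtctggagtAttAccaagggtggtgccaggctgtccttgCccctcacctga

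St14, the membrane serine protease matriptase of epithelial cells, was at 303, 270 and 259 CPM with ASO1 and at 550, 496 and 474 CPM with scASO (-0.87 ± 0.18). Card14, a scaffold of NF-kappa-B signaling in epithelia, was at 1.46, 1.17 and 1.79 CPM against 20.3, 3.15 and 15.6 CPM, with scASO tumor 2 closer to the ASO1 tumors than to its own group. The adhesion molecule L1cam was at 19.8, 9.13 and 15.9 CPM against 49.1, 36.0 and 43.0 CPM. The matrix protein Adamtsl2 was at 3.53, 3.30 and 4.18 CPM against 19.2, 9.0 and 18.8 CPM. Ephb4, an ephrin-B receptor like Ephb2, lay on the opposite side from it, at 136, 144 and 119 CPM against 237, 218 and 206 CPM. Btbd19, Psapl1, Mansc1, BC016579 and 2810468N07Rik completed the 15, with log2 fold changes from -2.19 (BC016579) to -0.84 (Mansc1).

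**Figure D2:**
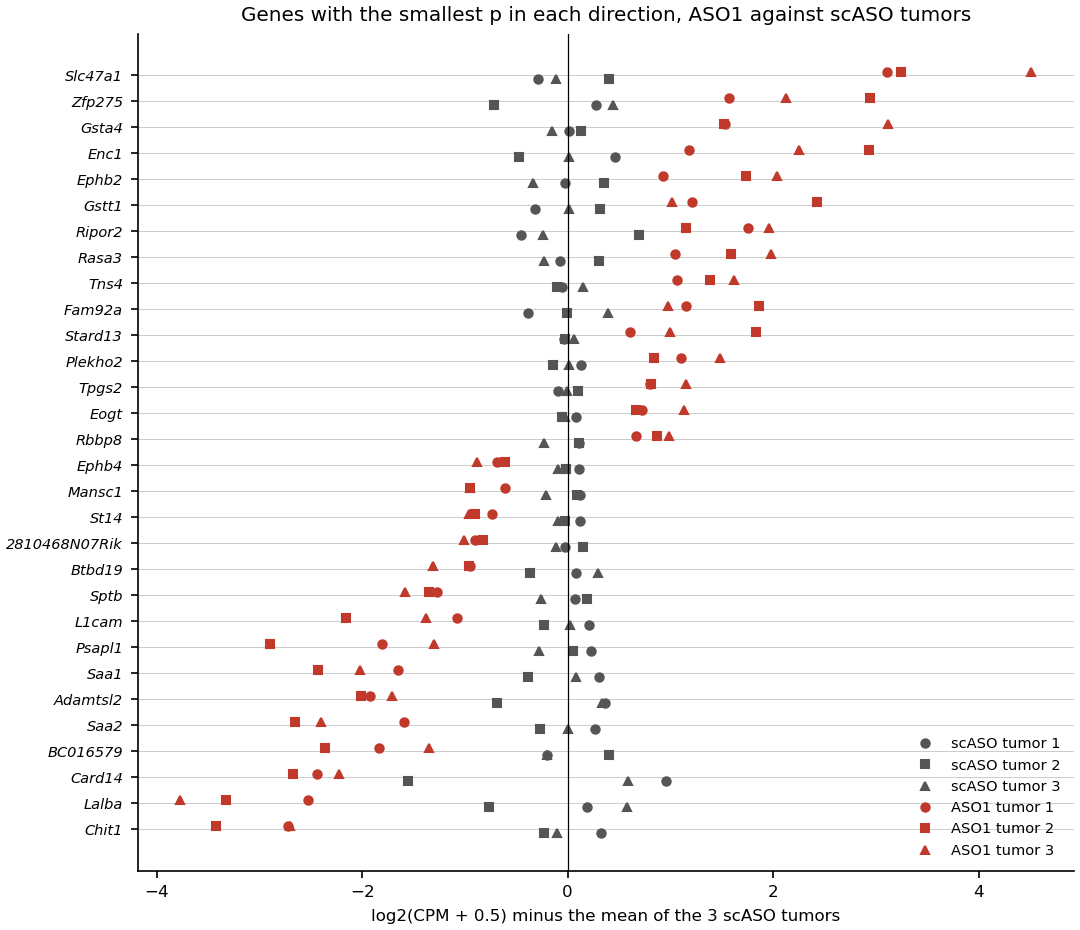
The 15 genes with the smallest p in each direction, 1 row per gene and 1 symbol per tumor, as log2(CPM + 0.5) minus the mean of the 3 scASO tumors (horizontal axis). Red ASO1 symbols lie to the right of every grey scASO symbol in the upper 15 rows and to the left in the lower 15, which the choice by p favours.

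In organoid cultures given the same oligonucleotide, the groups did not overlap for 0 of the 15 higher and 0 of the 15 lower genes, against 0.328% of all genes tested (0.179% higher and 0.15% lower). The library labelled scASO replicate 2 held Malat1 at 107 CPM, the level of the ASO1 organoids (80.9 to 169 CPM), while the other scASO organoids held 734 to 1146 CPM. Without it the counts were again 0, against 0.934% of all genes (0.501% higher and 0.432% lower). With shares this low over all genes, a count of 0 among 30 says nothing particular about them. Of the 15 genes higher in tumors 5 had a higher estimate in organoids, and of the 15 lower in tumors 8 had a lower one (6 and 7 without that library). Chit1 was at 78.8 to 89.9 CPM in ASO1 organoids and at 64.6 to 85.7 CPM in scASO organoids. Slc47a1 was at 4.46, 5.32, 17.4 and 4.78 CPM in ASO1 organoids and at 2.93, 3.52, 11.8 and 11.5 CPM in scASO organoids, with overlapping groups.

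Against the ASO2 tumors, which were given the other Malat1 oligonucleotide at the same dose, edgeR called 0 of 17354 genes (0%), 1743 had an unadjusted p under 0.05 (10%), 911 higher with ASO1 (5.25%) and 832 lower (4.79%), and DESeq2 called 164. The groups did not overlap for 1031 genes (5.94%), 516 higher (2.97%) and 515 lower (2.97%). Chit1 came nearest (log2 difference, ASO1 minus ASO2, -3.59 ± 0.41, adjusted p = 0.0577 by edgeR), followed by Tns4 (1.64 ± 0.21, adjusted p = 0.0698) and Slc47a1 (2.6 ± 0.38, adjusted p = 0.138). These contrasts use the same 3 ASO1 tumors as those against scASO and are not a separate test of them. Ednrb, the endothelin B receptor, was at 17.7, 11.7 and 20.2 CPM with ASO1, at 2.1 to 6.12 CPM with ASO2 and at 4.31 to 6.77 CPM with scASO. Vldlr, a lipoprotein receptor, and Fkbp11, a prolyl isomerase of the secretory pathway, had log2 differences from ASO2 tumors of 0.80 ± 0.15 and -1.31 ± 0.25 (adjusted p = 0.423 for each by edgeR) and overlapped with scASO tumors. The casein Csn1s2a was at 0.23 to 1.75 CPM with ASO1, at 1.16 to 2.63 CPM with scASO and at 22.3, 485, 316 and 6.10 CPM with ASO2, so that for this milk protein the ASO2 tumors stood apart and not the ASO1 tumors.

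Genes of cell division were higher in estimate throughout. The G2/M list holds genes that build the spindle and kinetochore and drive entry into and exit from mitosis, and all 34 of its members passed the filter on low counts. All 34 had a higher estimate with ASO1, with a median log2 fold change of 1.02, against 0.05 for all genes tested, of which 55.5% were higher. Of the 34, 28 were higher at an unadjusted p under 0.05 (against 4.97% of all genes) and 28 were higher without overlap (against 7.97%). The adjusted test was passed by 0. Cenpf, a kinetochore protein, was at 78.5, 110 and 57.8 CPM with ASO1 and at 41.2, 41.4 and 49.7 CPM with scASO (0.90 ± 0.24). Bub1, a kinase of the spindle checkpoint, was at 28.2, 62.1 and 20.3 CPM against 15.3, 12.6 and 15.5 CPM (1.35 ± 0.38). Ttk, the checkpoint kinase Mps1, was at 26.1, 42.9 and 15.7 CPM against 13.5, 9.77 and 12.0 CPM (1.27 ± 0.36). In all 3 genes the order of the ASO1 tumors was the same, with tumor 2 highest and tumor 3 nearest to the controls. Sgo1, shugoshin, which protects centromeric cohesion, was at 18.8, 39.9 and 13.1 CPM against 10.3, 7.63 and 10.8 CPM. Mki67, the most abundant member and a marker of cycling cells, was at 455, 726 and 309 CPM against 307, 206 and 281 CPM. Without ASO1 tumor 2 the median of the list was 0.53. In ASO2 tumors the list stood at -0.15, 0.81, 0.35 and 0.65 relative to the scASO mean on the log2 scale, a range that overlapped both other groups. The median log2 difference of ASO1 from ASO2 was 0.62, with 31 of 34 estimates higher.

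DNA replication and G1/S genes went along with them at a smaller size. All 32 members had a higher estimate, with a median of 0.62, and 0 passed the adjusted test. Of the 32, 14 had an unadjusted p under 0.05 (against 4.97% of all genes, higher) and 15 did not overlap (against 7.97%, higher). Tyms, which makes thymidylate, was at 51.6, 65 and 44.1 CPM with ASO1 and at 32.6, 32.0 and 32.9 CPM with scASO (0.72 ± 0.23). The origin factor Mcm10, cyclin Ccne2 and the ribonucleotide reductase subunit Rrm1 had log2 fold changes of 1.00, 0.99 and 0.75, and in each of them ASO1 tumor 3 lay within the control range. Without ASO1 tumor 2 the median of the list was 0.32. Whole tumors were measured, so more dividing cells and more of these RNAs per cell cannot be told apart, and the same holds for every cell type below.

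Promoters of most G2/M genes hold 2 short motifs, and they are shown because every member of the list had a higher estimate. The cell cycle genes homology region (TTTGAA, or the variant TTCGAA), which lies close to the start site, and the CCAAT box upstream of it are textbook elements of mitotic promoters, bound by the DREAM and MMB complexes and by NF-Y. RefSeq promoters (250 bases before to 50 after the start, GRCm38.p6) were matched for 28 of the 34 genes and searched on both strands. TTTGAA or TTCGAA was found in 23 of 28 (82.1%), against 21.7% of 27025 genes with a promoter entry, and in 19.2% of 26 DNA replication genes. CCAAT was found in 23 of 28 (82.1%), against 41.1% of all, and in 61.5% of the DNA replication genes. A match is a description of the letters and not a site of binding. The 3 members with the smallest p are given from 130 bases before to 20 from the start, 5′ to 3′, with matches to either motif in capitals (Cenpf at chr1:189688067-189688216, minus strand; Bub1 at chr2:127831840-127831989, minus strand; Ttk at chr9:83834559-83834708, plus strand):
Cenpf: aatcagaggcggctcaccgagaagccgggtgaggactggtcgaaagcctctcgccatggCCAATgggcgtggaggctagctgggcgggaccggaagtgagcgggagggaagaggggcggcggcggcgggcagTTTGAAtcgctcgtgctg
Bub1: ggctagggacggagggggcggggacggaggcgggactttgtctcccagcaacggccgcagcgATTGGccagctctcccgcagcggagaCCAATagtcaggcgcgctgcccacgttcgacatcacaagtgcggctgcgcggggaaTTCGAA
Ttk: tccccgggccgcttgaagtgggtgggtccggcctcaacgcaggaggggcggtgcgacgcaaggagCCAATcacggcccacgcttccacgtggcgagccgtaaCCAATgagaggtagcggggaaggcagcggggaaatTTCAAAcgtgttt
The homology region starts at position 3 in Cenpf, 15 in Bub1 (as TTCGAA) and 8 in Ttk (on the other strand), counting the first transcribed base as 1.

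**Figure D3:**
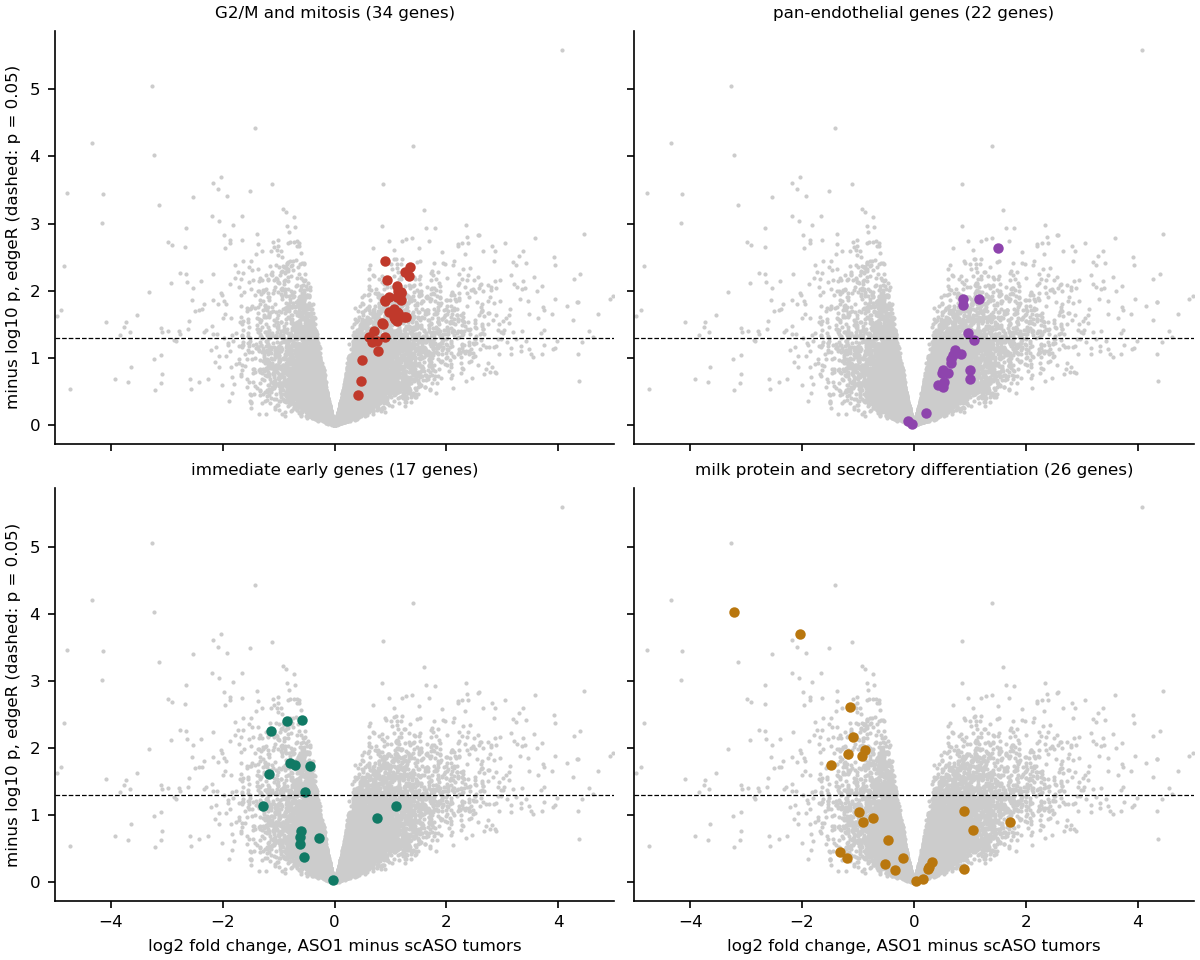
Each of 17354 genes by its log2 fold change, ASO1 minus scASO tumors (horizontal axis), and minus log10 of its unadjusted edgeR p (vertical axis), with the members of 1 list colored per panel and 9 genes beyond 5 on the log2 axis not drawn. All 34 G2/M genes lie to the right of 0 and 28 of them above the dashed line, drawn at the unadjusted edgeR threshold. Of 22 pan-endothelial genes 20 lie to the right with 5 above the line. Of 17 immediate early genes 15 lie to the left with 8 above it. Of all genes, 4.97% lie above it to the right and 3.48% to the left.

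Targets of p53, which arrest or kill stressed cells, were higher in 14 of 16 estimates with a median of 0.49, 3 had an unadjusted p under 0.05 (against 4.97% of all genes) and 4 were higher without overlap (against 7.97%). Ccng1, cyclin G1, was at 144, 158 and 180 CPM with ASO1 and at 87.8, 113 and 114 CPM with scASO (0.62 ± 0.19). Sesn1, a sestrin that restrains mTORC1, was at 36.8, 107 and 49.9 CPM against 26.7, 34.3 and 31.5 CPM. Gdf15 and Phlda3 followed with overlapping groups, and the most abundant member, Trp53inp1, was at 0.06 ± 0.32. Without ASO1 tumor 3 the median was 0.18.

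Endothelial genes were described by 3 lists, which were not alike. Of 22 pan-endothelial genes 20 had a higher estimate, with a median of 0.68. Of the 22, 12 were higher without overlap (against 7.97% of all genes) and 5 were higher at an unadjusted p under 0.05 (against 4.97%). Adgrf5, an adhesion receptor of capillaries and the most abundant member, was at 45.1, 50.1 and 30.9 CPM with ASO1 and at 18.6, 13.9 and 11.7 CPM with scASO (1.51 ± 0.38). The other members with the smallest p had ASO1 tumor 3 highest. Cdh5, the cadherin that joins endothelial cells, was at 20.9, 24.1 and 32.8 CPM against 14.3, 12.7 and 15.4 CPM (0.88 ± 0.29). Cldn5, a claudin of endothelial tight junctions, was at 4.48, 3.79 and 8.93 CPM against 2.79, 2.35 and 2.54 CPM. S1pr1, the receptor for sphingosine 1-phosphate, was at 9.68, 10.1 and 11.9 CPM against 7.37, 4.72 and 5.22 CPM. Against ASO2 tumors 21 of 22 estimates were higher, with a median of 0.85. Without ASO1 tumor 3 the median against scASO was 0.37. Of 20 genes of capillaries, arteries and tip cells 11 had a higher estimate and 9 a lower one, with a median of 0.38 (0.02 without ASO1 tumor 3 and 0.21 without scASO tumor 2). Of 6 lymphatic genes 4 had a higher estimate, with a median of 1.28 (0.20 without ASO1 tumor 3).

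Immediate early genes encode transcription factors and feedback proteins that growth factors and stress induce within minutes. Of 17 measured members 15 had a lower estimate with ASO1, with a median of -0.60. Of the 17, 8 were lower at an unadjusted p under 0.05 (against 3.48% of all genes) and 6 were lower without overlap (against 8.48%). Zfp36, which promotes decay of AU-rich mRNAs, was at 44.1, 47.4 and 51.4 CPM with ASO1 and at 72.0, 59.4 and 82.9 CPM with scASO (-0.58 ± 0.16). Jund, an AP-1 subunit and the most abundant member, was at 115, 97.7 and 105 CPM against 210, 212 and 150 CPM (-0.85 ± 0.23). Fosl2, its partner in AP-1, was at 88.0, 43.6 and 87.7 CPM against 154, 213 and 113 CPM. Jun itself was at 84.9, 58.5 and 109 CPM against 189, 107 and 140 CPM, with overlapping groups. The median kept its sign when each tumor was left out (-0.76 to -0.43), and against ASO2 tumors it was -0.67 with 15 of 17 lower. By tumor the list stood at -0.70, -0.50 and -0.36 with ASO1, relative to the scASO mean on the log2 scale. The scASO tumors stood at 0.23, -0.40 and 0.02, so that the groups overlapped, with scASO tumor 2 below ASO1 tumor 3.

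Genes of epithelial junctions and adhesion were mostly lower in estimate, by amounts that differed between members. Of 28 members 22 had a lower estimate, with a median of -0.23, and 14 were lower without overlap (against 8.48% of all genes). At an unadjusted p under 0.05, 7 were lower (against 3.48% of all genes) and 2 higher (against 4.97%). The epithelial adhesion molecule Epcam, the most abundant, was at 828, 718 and 770 CPM with ASO1 and at 1164, 1085 and 1041 CPM with scASO (-0.51 ± 0.20). Claudin Cldn7 was at 114, 97.7 and 116 CPM against 200, 177 and 207 CPM (-0.83 ± 0.23), and the tight junction scaffold Tjp3 was at 62.5, 64.2 and 75.4 CPM against 109, 90.5 and 95.1 CPM. By tumor the list stood at -0.14, -0.43 and -0.35 with ASO1 and at 0.13, -0.11 and -0.09 with scASO, so that ASO1 tumor 1 lay close to scASO tumors 2 and 3. St14, described above, belongs to this list. Claudin Cldn8 went the other way, at 100, 122 and 40.0 CPM against 35.5, 28.9 and 40.3 CPM. E-cadherin, Cdh1, was at 505, 464 and 527 CPM against 789, 729 and 630 CPM (-0.52 ± 0.19). Of the luminal keratins, Krt8 was at 662, 863 and 1088 CPM with ASO1 and at 1067, 774 and 1083 CPM with scASO. The groups overlapped, as they did for Krt18. Krt19 had a higher estimate (0.29 ± 0.64) and also overlapped. It was at 200, 410 and 1361 CPM with ASO1 and at 655, 300 and 654 CPM with scASO. Claudin Cldn3 was at 215, 216 and 281 CPM against 331, 323 and 403 CPM (-0.57 ± 0.39), lower without overlap.

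Milk protein and secretory differentiation genes were lower in 17 of 26 estimates, with a median of -0.62. Of the 26, 9 were lower without overlap (against 8.48% of all genes), 8 of these with an unadjusted p under 0.05 (against 3.48% of all genes, lower). Besides Lalba and Saa1, described above, Slc5a1, the sodium glucose cotransporter, was at 30.9, 24.8 and 29.4 CPM with ASO1 and at 72.4, 59.9 and 54.5 CPM with scASO (-1.14 ± 0.29). Muc1, the apical mucin of secretory cells, was at 129, 55.1 and 102 CPM against 195, 157 and 256 CPM. The kappa casein Csn3, the most abundant member, was at 8684, 1444 and 4788 CPM against 10421, 9294 and 9840 CPM. Its level was even in the controls and spread widely among ASO1 tumors, with tumor 2 lowest. Of the milk fat genes 12 of 22 were lower with a median of -0.07, and 4 were lower without overlap, against 8.48% of all genes. That median was -0.21 without ASO1 tumor 1, -0.18 without ASO1 tumor 2, and -0.11 without ASO1 tumor 3 or without scASO tumor 3. Without ASO1 tumor 1 the milk protein median was -1.08.

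**Figure D4:**
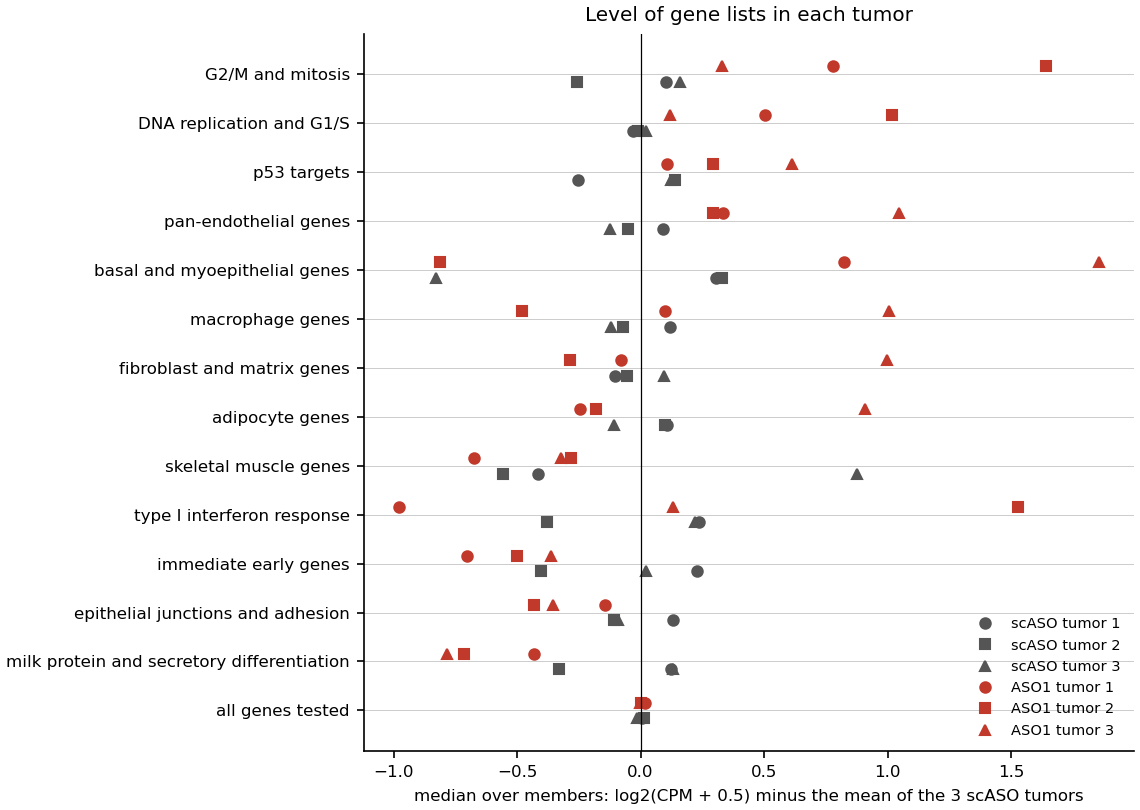
Level of 13 gene lists and of all genes in each tumor, as the median over members of log2(CPM + 0.5) minus the mean of the 3 scASO tumors (horizontal axis), with 1 symbol per tumor. ASO1 tumors lie right of every scASO tumor for G2/M (0.33 to 1.64), DNA replication and pan-endothelial genes and left of them for milk protein (-0.79 to -0.43) genes, while interferon genes span -0.98 to 1.53 among the ASO1 tumors alone.

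The ASO1 tumors also differed from each other in several lists. ASO1 tumor 2 had the highest G2/M level (1.64 above the scASO mean on the log2 scale, against 0.78 and 0.33 in ASO1 tumors 1 and 3). It also had the highest level of type I interferon response genes, 1.53, while ASO1 tumor 1 was at -0.98 and ASO1 tumor 3 at 0.13. Ifit2, an antiviral protein that binds RNA, was at 29.96, 267 and 37.6 CPM with ASO1 and at 42.6, 25.0 and 30.9 CPM with scASO. Ifit3 was at 32.4, 554 and 156 CPM against 108, 71.3 and 109 CPM. All 30 interferon genes had a higher estimate with a median of 0.56, but 0 separated the groups (against 16.4% of all genes). The median was -0.35 without ASO1 tumor 2 and 0.99 without ASO1 tumor 1. Among the ASO1 and scASO tumors, ASO1 tumor 3 had the highest level of macrophage (1.00), fibroblast (1.00), adipocyte (0.91) and basal or myoepithelial genes (1.85). Fibroblast genes reached 1.85 and adipocyte genes 3.69 in ASO2 tumors. Tagln, a contractile protein of myoepithelium and smooth muscle, was at 359, 136 and 1091 CPM with ASO1 and at 120, 307 and 78.7 CPM with scASO. Cav1, caveolin, was at 95.6, 37.6 and 207 CPM against 47.2, 48.7 and 27.6 CPM, and Oxtr, the oxytocin receptor of myoepithelium, at 155, 14.4 and 239 CPM against 61.3, 33.9 and 16.2 CPM. Of the 20 basal genes 15 were higher with a median of 1.06, but 1 was higher without overlap (against 7.97% of all genes). The median was 0.49 when ASO1 tumor 3 was left out and 0.70 when scASO tumor 3 was. Itgb4, an integrin of basal cells, was lower, at 61.1, 68.2 and 129 CPM against 211, 157 and 129 CPM.

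The pan-endothelial level was 0.33, 0.30 and 1.05 in ASO1 tumors 1 to 3, higher in tumor 3 along with its other stromal genes, and the pericyte list ran in the same order as the basal list (0.50, -0.22 and 0.82). The pericyte and basal lists share Tagln, so their like order is not independent. The G2/M level was highest and the basal level lowest (-0.81) in ASO1 tumor 2, and the part of these cell types in the results was not tested. Against a control mean of 0, adipocyte genes were at -0.24, -0.18 and 0.91 in ASO1 tumors against 0.40 to 3.69 in ASO2 tumors. Skeletal muscle genes were at -0.67, -0.28 and -0.32 in ASO1 tumors against -0.38 to 6.18 in ASO2 tumors. For the muscle list the scASO tumors were at -0.41, -0.56 and 0.87, so that only scASO tumor 3 stood above the ASO1 tumors. The median log2 fold change of that list was -1.03, and 0.05 without scASO tumor 3.

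Other groups bear on the oligonucleotide and on Malat1 itself. Receptors and factors of oligonucleotide uptake and RNase H1 had a median of 0.03, with 7 of 12 higher (-0.03 without scASO tumor 3, and 0.10, 0.17 and 0.15 without ASO1 tumor 1, ASO1 tumor 2 and scASO tumor 2). Of the 12, 3 were higher without overlap (against 7.97% of all genes) and 2 were higher at an unadjusted edgeR p under 0.05 (against 4.97%). In this list Scara3, of the scavenger receptor family, was at 15.9, 20.8 and 25.8 CPM with ASO1 and at 7.90, 5.79 and 7.89 CPM with scASO (1.54 ± 0.47, adjusted p = 0.535 by edgeR), and Asgr1, a subunit of the hepatic asialoglycoprotein receptor, was under 1 CPM in every tumor. Of 10 measured organic cation and anion transporters, a list of several families that includes Slc47a1 itself, 6 were higher with a median of 0.31. Abcb1b, a multidrug efflux pump, was at 3.79, 1.31 and 5.43 CPM against 1.41, 0.71 and 0.99 CPM, and Slc29a1, a nucleoside transporter and the most abundant, was at -0.06 ± 0.17. The median of these transporters was -0.04 without ASO1 tumor 3 and 0.20 without ASO1 tumor 2. SR proteins and other splicing factors of the speckles, where Malat1 resides, had a median of 0.00 with 13 of 25 higher. At an unadjusted p under 0.05 there were 0 of them (against 8.45% of all genes).

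Genes beside Malat1 on chromosome 19 were lower in 13 of 18 estimates, with a median of -0.26. Of the 18, 6 were lower without overlap (8.48% of all genes were) and 3 higher without overlap (7.97% of all genes). At an unadjusted p under 0.05, 3 were lower (3.48% of all genes) and 1 higher (4.97%). Ltbp3, a latent TGF-beta binding protein, was at 542, 427 and 594 CPM with ASO1 and at 649, 767 and 822 CPM with scASO (-0.52 ± 0.22). Rela, the p65 subunit of NF-kappa-B, was at 83.5, 80.5 and 105 CPM against 120, 121 and 118 CPM (-0.41 ± 0.18). Ovol1, an epithelial zinc finger factor, was at 10.6, 7.90 and 8.97 CPM against 18.1, 12.3 and 13.5 CPM. Cdc42ep2, an effector of Cdc42, went the other way, at 3.49, 5.39 and 3.57 CPM against 1.5, 1.28 and 2.11 CPM. Without ASO1 tumor 1 the median was -0.14, and against ASO2 tumors it was 0.01.

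Of the serum amyloid A and secreted defense proteins 11 of 15 had a lower estimate, with a median of -0.39 and 3 lower without overlap (against 8.48% of all genes). The median was -0.65 without ASO1 tumor 3, -0.24 without ASO1 tumor 1, and -0.60 when scASO tumor 2 was left out. The 3 without overlap were the amyloids themselves, Saa1, Saa2 and Saa3, the last at 3.27, 3.40 and 2.06 CPM with ASO1 and at 10.4, 4.42 and 4.87 CPM with scASO. Lcn2, the iron-scavenging lipocalin and the most abundant member, was at 3814, 2570 and 4339 CPM against 4107, 3969 and 6697 CPM, with overlapping groups. Lysozyme Lyz1 was above the controls in every ASO1 tumor (0.47, 0.92 and 4.75 CPM against 0.23, 0.18 and 0.30 CPM), though of these only ASO1 tumor 3 exceeded 1 CPM. With ASO2 it was at 1.89 to 31.0 CPM, which overlapped the ASO1 tumors.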

How the data were processed

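The authors deposited 1 table of raw read counts per gene for each library. The submitters' processing notes list mm9 and 5 tools (CASAVA, FastQC, STAR, HTSeq, DESeq2). Tool versions, annotation and strand setting: not given in the sources used here. TruSeq libraries of polyadenylated RNA were made after TRIzol extraction, per the labels' protocols. The tables held 37310 genes and 5 summary lines, which entered neither library sizes nor tests. Symbols came from GENCODE M21 (32620 IDs matched).

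Groups came from sample titles. All 10 tumors were fitted with edgeR 4.0.16 in R 4.3.3 (TMM, quasi-likelihood F-test, filterByExpr at count 10, total 15), with Benjamini-Hochberg adjustment over 17354 genes at 0.05. The SE is the log2 fold change divided by the root of F. Single values were tested by exact two-sided permutation. The fit was tested on simulated data. Alternatives were other scalings, no filter, DESeq2 1.42.0, limma 3.58.1 voom with weights, robust dispersion, the compared groups alone, a replicate block and each tumor left out.

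The genes named were Malat1, Neat1, the called gene, the 15 per direction with the smallest p (5 against ASO2) with mean log2 CPM 1 or above, and up to 4 members with the smallest p plus the most abundant of each list described. Cdh1, Krt8, Krt18, Krt19 and Cldn3, markers of epithelium, fall outside that rule and were chosen after their values were seen. The members and the 40 lists were chosen with earlier results of these data known. Genes with near-identical copies are uncertain since multiply aligned reads went uncounted.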

Additional observations from a re-analysis of the deposited data

How the results depend on the processing

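Against scASO, 1 gene was called also with the RLE and upper quartile scalings, with voom and with robust dispersion. The count was 3 with no filter on low counts, 130 with DESeq2, 0 with only the compared groups and 0 with the replicate block. It ran from 0 to 3 when each tumor was left out (3 without ASO2 tumor 4) and from 33 to 277 with DESeq2, chosen after seeing the data (197 and 201 without ASO1 tumors 2 and 3, 58 and 56 without scASO tumors 2 and 3). Against ASO2 the count was 4 with no filter, 164 with DESeq2, 0 to 1 when each tumor was left out, and 0 otherwise. The log2 fold change of Malat1 ran from -1.38 to -0.84. With the other scalings 2841 to 2866 of 17354 genes did not overlap, and with no filter 3456 of 27184 genes did not. Estimates turned for Ifit3 (-0.39), Irf7 (-0.84) and Ifi27l2a (-0.68) with voom and for Irf7 (-0.0441) with the replicate block. When each tumor was left out they ran from -0.16 to 0.34 for Trp53inp1, -0.0440 to 1.88 for Ifit3, -0.61 to 0.51 for Irf7, -0.34 to 0.0121 for Anxa2, -0.35 to 1.15 for Sparc and -0.18 to 0.0537 for Slc29a1. With voom the interferon median was -0.32. The cause of these changes was not tested. Under DESeq2 all 30 genes with the smallest p passed the adjusted threshold, and Chit1 also passed with no filter and without ASO2 tumor 4. The block ended the call of Slc47a1 and changed no other. Same-numbered tumors correlated above 0.1 in 2 of 9 pairs, so the numbers were not read as pairing the tumors.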
